A study of Mus musculus with 8 samples.

Results

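Bidirectional promoters lie between 2 genes that sit head to head and are transcribed away from each other from nearby start sites on opposite strands. In mammals many such promoters are rich in CpG dinucleotides, and genes with general roles in the cell, such as DNA repair and metabolism, are often arranged this way. Because both genes share a stretch of regulatory DNA, they can be regulated together, but transcription in each direction starts at its own site. The members here were found in the authors' merged annotation of the mouse genome (build mm9). Each pair joins 2 coding loci on opposite strands, each with a transcript that matches the reference, whose outermost matching transcripts start at most 1000 nucleotides (nt) apart and do not overlap. The rule gave 676 pairs with 1352 distinct loci, out of 19989 coding loci with a reference transcript and 20006 pairs of neighbouring coding loci. No expression value entered the rule.

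RNA was sequenced from bone marrow-derived macrophages of C57BL/6 mice, cells grown from bone marrow into macrophages in culture. Untreated cells gave 4 libraries and IL-4-treated cells another 4. IL-4, or interleukin-4, is a cytokine of helper T cells and other leukocytes that acts on macrophages through STAT6 and induces the programme called alternative activation. The labels give neither the dose and time of IL-4 nor the age and sex of the mice. Whether replicates came from separate animals is not stated, so a p-value reflects only how far the 8 libraries spread. Replicates 2 and 3 were the most alike in both groups (chi-square of counts per degree of freedom 4.78 untreated and 6.503 with IL-4). Other library pairs within a group ranged from 13.423 to 40.988, so the 4 libraries of a group may not be equally independent. Total counts ran from 23071022 to 27783417 per library, and from 17767 to 18661 loci had reads. The comparison asks whether the genes on each side of a shared promoter differed in abundance with IL-4, and whether they did so together.

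The files give no gene names for these loci, so each is described by strand, position and exon number. The labelled cell type could not be checked against marker genes for the same reason. A level is given in CPM, the usual library-scaled count (a locus's share of all counts in its library), in the order of replicates 1 to 4. Levels of single loci are set against each other per length, as FPKM, which also divides by transcript length in kilobases. Medians over sets of loci are in CPM and carry no correction for length. A fold is the change fitted by edgeR, IL-4 against untreated. The normalization factors place fitted log2 fold changes a median of 0.11 above the log2 ratio of mean CPM over all tested loci. Falls therefore look larger, and rises smaller, in CPM than in the fit. In bulk RNA, fewer cells with a transcript and less of it per cell cannot be told apart.

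The start sites of a pair lay a median of 173.5 nt apart, with quartiles of 90 and 326.25 nt and a range from 1 to 1000 nt. At most 300 nt separated 491 pairs (72.6%). Chromosomes 7 and 11 held the most pairs, with 58 each, followed by chromosome 2 with 54. The members had a median of 9 exons in their longest transcript, and 42 members had single-exon transcripts only. Of the 6 pairs with single-exon loci on both sides, all were on chromosome 13. With all assembled transcripts taken into account, 121 pairs overlapped. Some exonic sequence was shared with another locus in 529 members, and 314 pairs had none shared on either side. In 70 members, called joined here, the reference transcripts fall into stretches that do not overlap each other. Whether a joined locus holds separate genes was not tested.

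Most members were expressed. The count filter kept 1133 of 1352 members (83.8%), against 54.0% of all coding loci with a reference transcript. Their median level was 17.1 CPM for all members and 24.2 CPM for the kept ones, against 1.13 CPM for coding loci with a reference transcript and 17.0 CPM for all tested loci. Both members were kept in 503 pairs (74.4%), 1 member in 127 pairs and neither in 46. Over all neighbouring coding pairs, both members were kept in 36.4%. That share was 45.1% for divergent pairs over 1000 and up to 10000 nt apart, 34.0% for divergent pairs further apart, 31.5% for convergent pairs and 32.3% for neighbours on the same strand. Overlapping pairs came nearest to the bidirectional ones, with 55.6%. Together the members took from 6.02% to 6.32% of the counts in the untreated libraries and from 6.08% to 6.21% with IL-4, so the ranges overlapped.

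Among the members that were not kept, 76 had 0 counts in all 8 libraries. A group of libraries with 0 counts allows up to 3 counts, and this covers counting error only. In 30 of these 76 the deposited FPKM were above 0 in some library. At least 50% of the exonic sequence was shared with another locus in 23 of the 76, and all of it in 15. The labels do not say how reads that meet several loci were counted, and the part of shared exons in these zeros was not tested.

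Treatment with IL-4 changed 519 of the 1133 tested members (45.8%), where 51.8% of all 13761 tested loci changed (edgeR, adjusted p under 0.05). Among them 276 rose, or 24.4% against 25.6% of all tested loci, and 243 fell, or 21.4% against 26.2%. The other 614 were not called. Large changes took a small share of the members. Only 20 rose 2-fold or more (1.77%, against 8.03% of all tested loci) and 30 fell 2-fold or more (2.65%, against 8.04%). Tested against a change of 1.5-fold with edgeR's glmTreat, 31 rose (2.74%, against 9.02%) and 41 fell (3.62%, against 8.91%). The untreated and IL-4 libraries did not overlap in 504 tested members (44.5%, against 50.2%). The median absolute log2 fold change was 0.23 over the tested members and 0.32 over all tested loci. The median signed change was 0.02 and -0.02, and single members ran from -4.21 to 4.37.

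In the 503 pairs with both members tested, as over all neighbouring coding pairs, joint movement was less common than movement of a single member. Both members rose in 43 pairs, where 10.1% of all 7287 tested neighbouring coding pairs did so, and both fell in 45 pairs, against 10.9%. In 27 pairs the members moved in opposite directions, against 10.4%. Exactly 1 member was called in 227 of 503 pairs, a share close to the 3295 of 7287 (45.2%) over all neighbouring coding pairs. Neither was called in 161 of 503, against 1710 of 7287. With the replicate number as a block, 42 pairs moved in opposite directions in place of 27. Without untreated replicate 2, or without both replicate 4 libraries, 28 pairs rose together in place of 43.

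Where both members of a pair were called, they moved the same way in 88 of 115 pairs (76.5%). The share was 66.9% over all neighbouring coding pairs, 74.7% for divergent pairs over 1000 and up to 10000 nt apart, 69.4% for divergent pairs further apart, 60.8% for convergent pairs and 64.8% for same-strand pairs. Overlapping pairs had 75.3%. Taken over all pairs with both members tested, the order was different. Same-direction pairs made up 17.5% of bidirectional pairs and 21.0% of all neighbouring coding pairs. Across the 503 pairs, the log2 fold changes of the members had a Pearson correlation of 0.28 and a Spearman correlation of 0.22, against 0.24 and 0.23 over all 7287 neighbouring coding pairs. Divergent pairs over 1000 and up to 10000 nt apart had higher values, 0.56 and 0.37 (n = 330), as did overlapping pairs, 0.36 and 0.32 (n = 1005). Divergent pairs further apart had 0.17 and 0.24 (n = 1026), convergent pairs 0.18 and 0.15 (n = 1211) and same-strand pairs 0.24 and 0.21 (n = 3212). All these points share the same 8 libraries and scaling, and no test of the differences between pair classes was made.

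**Figure D1:**
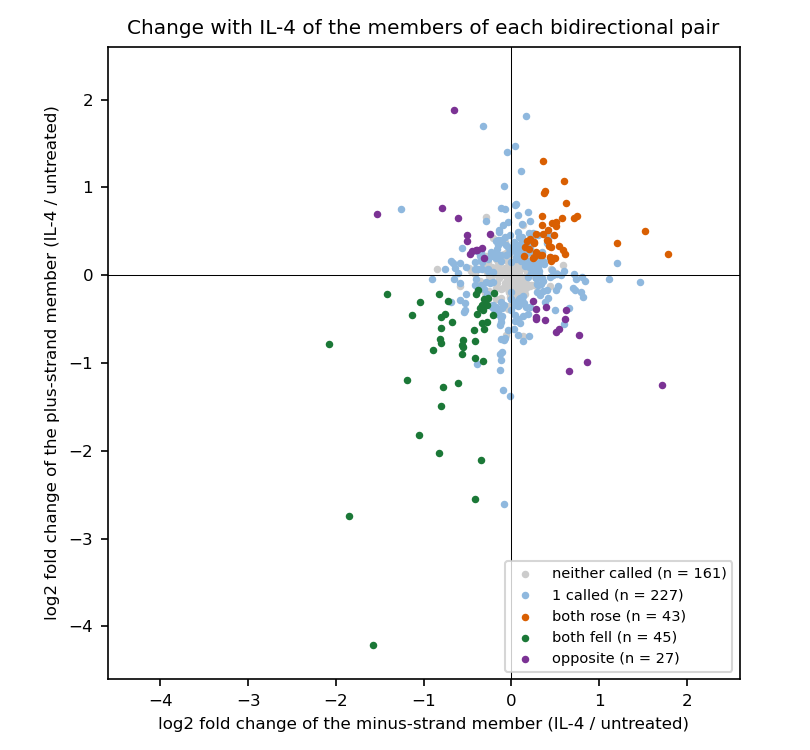
Fitted log2 fold change with IL-4 of the minus-strand member (horizontal) and the plus-strand member (vertical) of the 503 bidirectional pairs with both members tested. Most points lie near the centre, and the points furthest out are in the lower left, where both members fell.

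**Figure D2:**
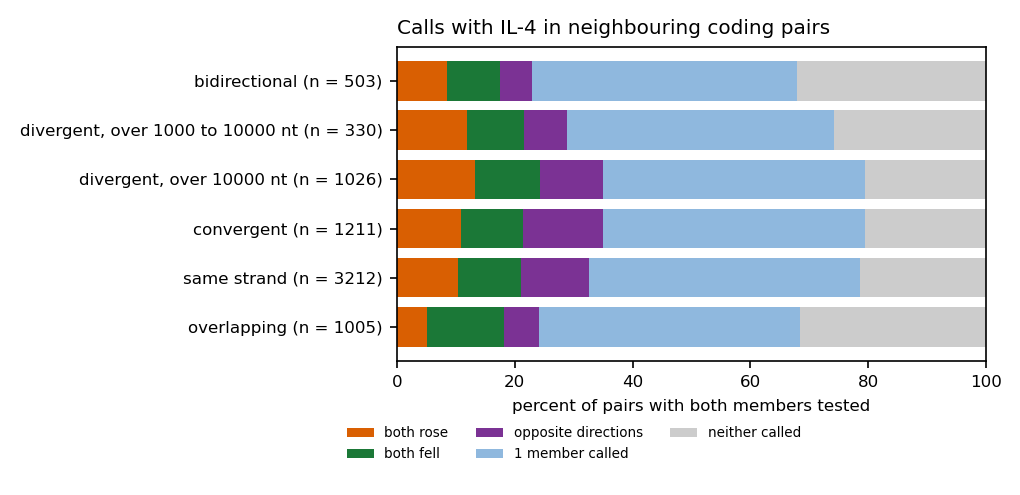
Share of pairs, in percent of those with both members tested, whose members rose together, fell together, moved in opposite directions, had 1 member called or had neither called, for bidirectional pairs and 5 other classes of neighbouring coding pairs. Pairs with neither member called number 161 of 503 for bidirectional pairs and 1710 of 7287 over all neighbouring coding pairs.

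By distance within the limit, the members moved the same way in 25 of the 34 pairs with both called at up to 100 nt (73.5%). At over 100 and up to 300 nt they did so in 40 of 52 pairs (76.9%), and at over 300 nt in 23 of 29 (79.3%). Both members were kept in 77.2%, 78.5% and 64.9% of pairs in these 3 ranges. The Pearson correlation of the members' log2 fold changes was 0.30 (n = 149), 0.32 (n = 234) and 0.16 (n = 120), and the Spearman correlation 0.22, 0.20 and 0.23. Differences between the ranges were not tested. Among pairs just inside and just outside the limit, the 2 pairs at exactly 1000 nt were on chromosomes 11 and 12. The pair on chromosome 11 went from 8.52 to 10.2 CPM on the minus strand and from 16.7 to 21.4 CPM on the plus strand, and that on chromosome 12 from 60.8 to 38.7 and from 2.85 to 1.496 CPM. The nearest pairs outside, at 1004 nt on chromosome 10 and 1014 nt on chromosome 1, went from 44.6 to 45.7 and from 154.7 to 155.3 CPM on the minus strand. On the plus strand they went from 1.36 to 5.84 and from 64.6 to 94.0 CPM. These values describe the edge of the rule, and nothing is read from them.

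A direct measure of moving apart is the ratio of the plus-strand to the minus-strand count, in which library size cancels. This ratio changed with IL-4 in 214 of 503 bidirectional pairs (42.5%), where it changed in 54.5% of all neighbouring coding pairs (limma on log2 ratios, adjusted p under 0.05). It shifted towards the plus-strand member in 99 pairs and towards the minus-strand member in 115, and by 2-fold or more in 35. No 2-fold count is given here for the other pair classes. All 27 pairs called in opposite directions had a changed ratio, as did 28 of the 88 that moved the same way, 137 of the 227 with 1 member called and 22 of the 161 with neither called. The median absolute change of the log2 ratio was 0.29, against 0.44 over all neighbouring coding pairs. Overlapping pairs were close to the bidirectional ones, with a changed ratio in 41.0% and a median of 0.33. Divergent pairs over 1000 and up to 10000 nt apart had 51.5% and 0.39. The share was 57.7% for divergent pairs further apart, 58.9% for convergent pairs and 58.3% for same-strand pairs.

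Few pairs with both members rising moved far. In none of the 43 pairs did both members rise 2-fold or more, and in 5 at least 1 member did. The pair with the largest joint rise, ranked by its smaller change, was on chromosome 11 with 5′ ends at 93747080 (minus strand, 15 exons) and 93747420 (plus strand, 18 exons). On the minus strand the level was 41.2, 49.6, 48.2 and 45.9 CPM in the untreated libraries and 74.6, 71.6, 75.8 and 66.2 CPM with IL-4. The plus-strand member was at 29.6, 44.7, 50.0 and 43.1 CPM untreated and at 58.9, 67.4, 67.8 and 53.2 CPM with IL-4. Neither member's groups overlapped, though untreated replicate 1 was low for the plus-strand member. The rises were 1.68-fold (log2 0.75, SE 0.07, edgeR, adjusted p = 4.429e-06) and 1.59-fold (log2 0.67, SE 0.13, adjusted p = 0.001559). The ratio of the members changed by -0.06 on the log2 scale (SE 0.11, limma, adjusted p = 0.69).

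The next joint rise was on chromosome 16, with 5′ ends at 20610822 and 20611674. The 9-exon minus-strand member was at 3.91, 5.25, 4.55 and 4.09 CPM untreated and at 5.92, 7.49, 6.76 and 6.84 CPM with IL-4. Its 20-exon partner on the plus strand was at 13.6, 13.1, 12.3 and 13.4 CPM and at 15.8, 20.3, 20.9 and 19.5 CPM. All IL-4 libraries were above all untreated ones for both, and the fitted rises were 1.63-fold and 1.57-fold (edgeR, adjusted p = 0.0006101 and 0.0003109). A pair on chromosome 13, with 5′ ends at 104899694 and 104899870, had members that differed in level, at 13.6 and 0.797 FPKM in untreated cells. The 14-exon minus-strand locus went from 76.4, 77.7, 79.2 and 74.5 CPM to 103, 108, 115 and 113 CPM. The 11-exon plus-strand locus, 62.9% of whose exonic sequence is shared with another locus, went from 1.69, 1.72, 2.08 and 2.38 CPM to 3.13, 3.42, 2.92 and 3.48 CPM. The groups were apart for both members, with rises of 1.53-fold and 1.77-fold (edgeR, adjusted p = 6.609e-06 and 0.0009495).

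The fourth joint rise was on chromosome 10, with 5′ ends at 86168189 and 86168556. Its 19-exon minus-strand member was at 581, 626, 625 and 587 CPM untreated and at 869, 823, 857 and 864 CPM with IL-4. The plus-strand member of 22 exons was at 18.8, 20.4, 21.8 and 17.6 CPM and at 37.9, 43.0, 37.3 and 35.0 CPM. Both rose without overlap, by 1.52-fold and 2.098-fold, and the ratio shifted to the plus-strand member by 0.46 on the log2 scale (SE 0.10, limma, adjusted p = 0.001633). Only 3.62% of the FPKM of the plus-strand member came from transcripts that start at the shared promoter in untreated cells, and 1.56% with IL-4. Of the 4 pairs, it was the only one with a changed ratio.

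Joint falls reached further. In 4 of the 45 pairs both members fell 2-fold or more, and in 14 at least 1 member did. The pair with the largest joint fall was on chromosome 11, with 5′ ends only 47 nt apart at 119216824 and 119216871. Its minus-strand member, a locus of 8 exons that shares 82.2% of its exonic sequence with another locus, was at 13.9, 11.4, 10.4 and 9.56 CPM untreated and at 2.86, 2.81, 2.29 and 3.66 CPM with IL-4. On the plus strand, the 17-exon locus XLOC_004105 was at 98.9, 74.5, 71.2 and 67.3 CPM untreated and at 12.8, 8.49, 8.26 and 13.5 CPM with IL-4. Every IL-4 library was below every untreated one on both strands. The falls were 3.61-fold (log2 -1.85, SE 0.17, edgeR, adjusted p = 4.428e-06) and 6.72-fold (log2 -2.75, SE 0.19, adjusted p = 5.025e-07). The plus-strand member fell further, and the log2 ratio changed by -0.91 (SE 0.14, limma, adjusted p = 0.000119). Transcripts from the shared promoter gave at least 93.3% of the FPKM of both members in each group, and those FPKM fell too, by 1.87 and by 2.72 on the log2 scale (limma, adjusted p = 7.126e-06 and 3.843e-06).

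The deepest fall of any member was in a pair on chromosome 19, with 5′ ends at 34715233 and 34715379. The plus-strand member XLOC_013631, a 2-exon locus, was at 46.1, 38.8, 31.9 and 66.3 CPM untreated and at 2.17, 1.87, 1.71 and 3.40 CPM with IL-4. The untreated libraries were spread over a range of 31.9 to 66.3 CPM, but none came near the IL-4 libraries. This is an 18.5-fold fall (log2 -4.21, SE 0.28, edgeR, adjusted p = 4.44e-07). Its 3-exon partner was low, at 1.05, 1.09, 0.780 and 1.04 CPM untreated and 0.271, 0.360, 0.209 and 0.370 CPM with IL-4. It fell 2.99-fold (log2 -1.58, SE 0.25, edgeR, adjusted p = 0.0003277), so the log2 ratio changed by -2.64 (SE 0.30, limma, adjusted p = 1.22e-05). Neither member shares exonic sequence with another locus, and each has a single assembled transcript.

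On chromosome 12, with 5′ ends at 117643713 and 117643875, a 2-exon and a 29-exon locus fell by nearly the same factor. The 2-exon minus-strand locus went from 3.83, 3.11, 3.47 and 3.50 CPM to 1.59, 1.19, 1.04 and 1.81 CPM. The 29-exon plus-strand locus went from 99.5, 97.7, 96.3 and 91.3 CPM to 42.5, 35.2, 36.5 and 41.5 CPM. The groups were apart for both, with falls of 2.28-fold and 2.29-fold (edgeR, adjusted p = 0.000295 and 2.856e-07) and a log2 ratio that changed by 0.02 (SE 0.18, limma, adjusted p = 0.95). Computed from summed FPKM, the same ratio changed by -0.44 (limma, adjusted p = 0.01035). For the plus-strand locus, FPKM from the shared promoter went from 7.02 ± 0.601 to 3.62 ± 0.306 and FPKM from other starts from 3.63 ± 0.608 to 0.143 ± 0.174 (SD, n = 4).

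The last of the 4 pairs was on chromosome 5, with 5′ ends at 121262523 and 121262644. Its 7-exon minus-strand member was at 11.1, 8.17, 7.97 and 10.3 CPM untreated and at 4.88, 4.00, 3.80 and 4.14 CPM with IL-4. The 6-exon plus-strand member was at 10.2, 12.2, 10.9 and 14.7 CPM and at 2.83, 3.06, 3.67 and 3.14 CPM. No library of 1 group reached the other group. The falls were 2.08-fold and 3.52-fold (edgeR, adjusted p = 0.0001104 and 1.636e-06), and the log2 ratio changed by -0.76 (SE 0.19, limma, adjusted p = 0.004405). Per length, the members were at 3.09 and 2.77 FPKM untreated and at 1.49 and 0.752 FPKM with IL-4.

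**Figure D3:**
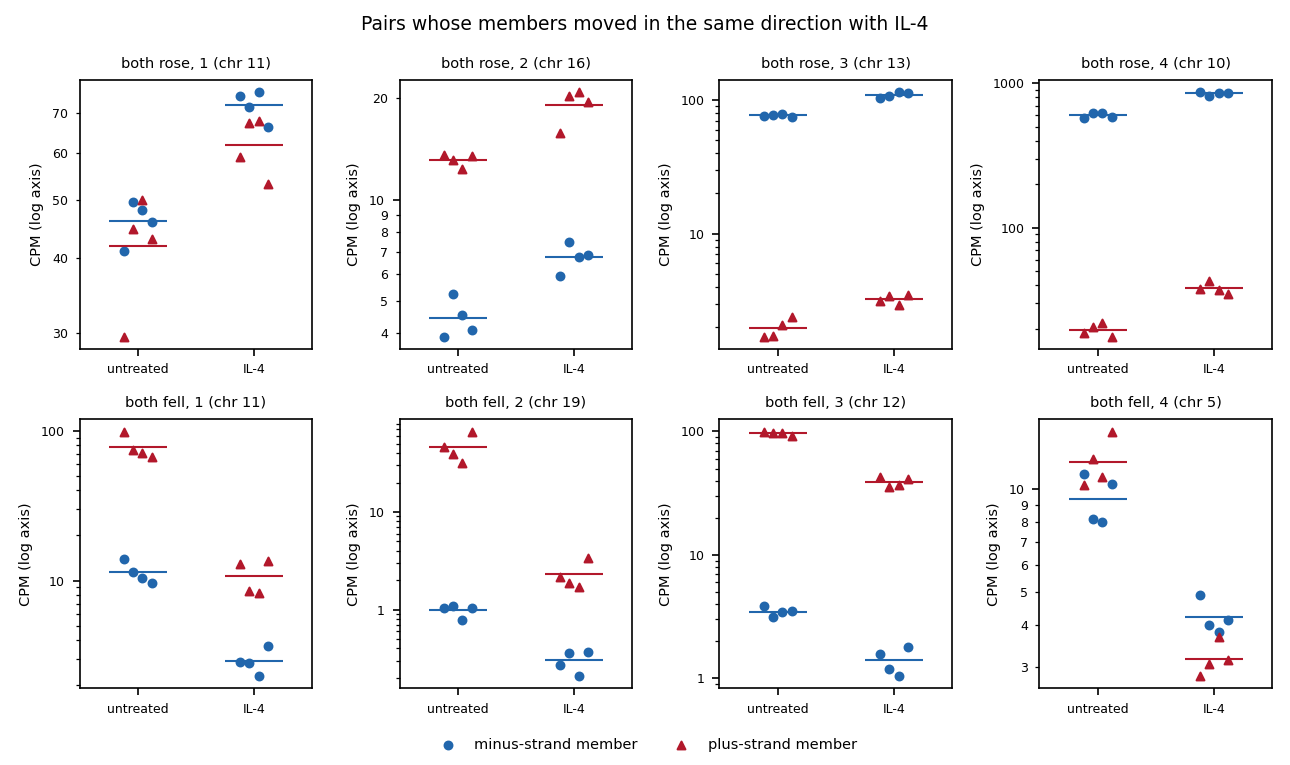
CPM on a log axis in each of the 8 libraries for the 4 pairs that rose together (top) and the 4 that fell together (bottom), numbered in the order of the text. Circles are minus-strand members, triangles plus-strand members and lines group means, and in each panel the IL-4 points of a member are all on 1 side of its untreated points.

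The partners of strongly changed members were counted next. For comparison, 25.6% of all tested loci rose and 26.2% fell, as did 24.4% and 21.4% of the tested members. No such partner count is given here for other classes of neighbouring pairs. Of 16 members that rose 2-fold or more and had a tested partner, 5 partners also rose, 2 fell and 9 were not called. None of these 16 partners rose 2-fold or more, and their median log2 fold change was 0.08. Of 27 members that fell 2-fold or more with a tested partner, 18 partners also fell, 3 rose and 6 were not called. The median log2 fold change of these partners was -0.45. The 4 pairs in which both members fell 2-fold or more enter these counts once from each side, and give all 8 partners that fell 2-fold or more. Without them 10 of 19 partners fell, with a median of -0.30. The difference between the rising and falling members was not tested.

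The largest rise of any member, found after the values were seen, had a partner too low to test. The pair was on chromosome 1, with 5′ ends 61 nt apart at 75476046 and 75476107. The 5-exon minus-strand member XLOC_000942 was at 0.645, 0.899, 0.564 and 0.417 CPM untreated and at 13.6, 15.3, 11.3 and 9.06 CPM with IL-4. Its lowest IL-4 library was far above its highest untreated one, and the rise was 20.6-fold (log2 4.37, SE 0.23, edgeR, adjusted p = 7.419e-08). The plus-strand member, also of 5 exons, was at 0.0807, 0.0375, 0.217 and 0.0835 CPM untreated and at 0.658, 0.972, 0.793 and 0.222 CPM with IL-4. Its groups did not overlap, by a small margin, but it did not pass the count filter and was not tested. Transcripts from the shared promoter rose by 3.76 on the log2 scale at the minus-strand member (SE 0.29, limma on log2(FPKM + 0.1), adjusted p = 6.219e-06).

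Members of 27 pairs moved in opposite directions. The largest change of ratio among them was on chromosome 1, with 5′ ends at 33964466 and 33965070. The 7-exon minus-strand member was low and rose, from 0.282, 0.562, 0.477 and 0.501 CPM to 1.20, 1.55, 1.92 and 0.961 CPM. The 98-exon plus-strand member fell, from 47.9, 56.5, 62.1 and 39.1 CPM to 20.9, 21.4, 23.0 and 14.6 CPM. The groups were apart for both members, which rose 3.28-fold (log2 1.71, SE 0.28, edgeR, adjusted p = 0.0004086) and fell 2.39-fold (log2 -1.25, SE 0.15, adjusted p = 4.102e-05). The log2 ratio changed by -2.94 (SE 0.28, limma, adjusted p = 2.814e-06). Only 16.5% of the FPKM of the plus-strand member came from the shared promoter in untreated cells. For the minus-strand member it was 88.2%.

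A second such pair was on chromosome 11, with 5′ ends at 87217997 and 87218567, and both its members took at least 97.0% of their FPKM from the shared promoter. Its 10-exon minus-strand member fell from 2.78, 2.85, 2.86 and 2.13 CPM to 1.94, 1.40, 1.21 and 1.70 CPM. On the plus strand a 31-exon member rose from 0.686, 0.750, 0.997 and 1.17 CPM to 2.90, 3.02, 3.75 and 2.62 CPM. The plus-strand groups were far apart, while the lowest untreated and highest IL-4 libraries of the minus-strand member differed by little. The fall was 1.57-fold (log2 -0.65, SE 0.18, edgeR, adjusted p = 0.009814) and the rise 3.67-fold (log2 1.88, SE 0.20, adjusted p = 1.649e-05). The minus-strand member was at 0.540 FPKM and the plus-strand member at 0.0802 FPKM in untreated cells. With IL-4 they were at 0.329 ± 0.0692 and 0.339 FPKM, a difference within the spread of the libraries (SD, n = 4).

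On chromosome 19 a further pair had 5′ ends 36 nt apart, at 10076123 and 10076159. The 12-exon minus-strand member fell from 62.1, 69.8, 69.4 and 76.1 CPM to 21.4, 17.8, 19.2 and 30.2 CPM. Of its exonic sequence, 53.8% is shared with another locus. Only 17.7% of its FPKM came from the shared promoter in untreated cells, and 10.7% with IL-4. On the plus strand, a joined locus of 22 exons rose from 432, 431, 458 and 371 CPM to 613, 684, 675 and 579 CPM. Counts of both members were apart between groups, with a 2.90-fold fall and a 1.62-fold rise (edgeR, adjusted p = 9.346e-06 and 2.056e-05). The FPKM of the plus-strand member tell less. They were near 0 for the shared promoter in every library, and the whole locus is listed at 0 FPKM in IL-4 replicate 3, whose count was 675 CPM. With that value the FPKM ratio changed by -0.41 on the log2 scale (limma, adjusted p = 0.87), against 2.27 for counts (SE 0.19, adjusted p = 1.121e-06).

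The fourth pair was on chromosome 17, with 5′ ends at 11033057 and 11033250. A minus-strand member of 5 exons rose from 4.03, 6.93, 7.93 and 7.09 CPM to 11.9, 10.4, 9.72 and 11.6 CPM. The 12-exon plus-strand member fell from 8.83, 10.3, 10.8 and 9.77 CPM to 4.95, 4.32, 3.88 and 5.47 CPM. Each member's groups were apart, with replicate 1 the lowest untreated library of both, and the changes were 1.81-fold up and 1.98-fold down (edgeR, adjusted p = 0.001422 and 5.431e-05). At the minus-strand member only transcripts from other starts passed the test, at 2.1 ± 0.746 and 4.45 ± 0.554 FPKM (SD, n = 4, limma, adjusted p = 0.006581). Its transcripts from the shared promoter were at 1.46 ± 0.201 and 1.39 ± 0.202 FPKM (adjusted p = 0.74), while those of the plus-strand member fell from 6.26 ± 0.839 to 2.85 ± 0.638 FPKM (adjusted p = 0.0004015).

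In 227 pairs a single member was called. The largest ratio changes among those in which it was also the one that moved more are described here. On chromosome 1, with 5′ ends at 75207353 and 75207404, an 8-exon plus-strand member fell from 1.77, 1.01, 1.13 and 1.17 CPM to 0.271, 0.216, 0.0417 and 0.222 CPM. The fall was 6.07-fold (edgeR, adjusted p = 0.0001337), with no overlap. Its FPKM did not show it, at 5.53 ± 0.520 and 5.42 ± 0.217 FPKM (SD, n = 4), and 65.6% of its exonic sequence is shared with another locus. The joined 32-exon minus-strand partner was at 40.2, 37.6, 38.8 and 37.4 CPM and at 34.8, 35.9, 31.0 and 32.9 CPM. Those groups did not overlap in CPM, but on the fitted scale the partner was not called (1.06-fold lower, adjusted p = 0.30). By FPKM the ratio changed by -0.01 on the log2 scale (limma, adjusted p = 0.95), against -2.62 by counts.

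On chromosome 13, with 5′ ends at 23775828 and 23776068, a 2-exon plus-strand member rose from 14.4, 18.5, 16.1 and 18.2 CPM to 54.0, 54.8, 48.8 and 45.5 CPM. This 3.25-fold rise (log2 1.70, SE 0.09, edgeR, adjusted p = 1.046e-07) stood beside a single-exon partner at 36.2, 26.9, 23.9 and 23.3 CPM untreated and 23.3, 18.8, 21.6 and 18.1 CPM with IL-4. The partner's groups overlapped slightly, and it was not called without the replicate block (log2 -0.33, adjusted p = 0.07577) but was with it (log2 -0.31, adjusted p = 0.01029). In FPKM the plus-strand member went from 116 ± 4.81 to 215 ± 5.66 (SD, n = 4), and 52.3% of its exonic sequence is shared.

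A low pair on chromosome 17, with 5′ ends at 43803964 and 43804374, had a minus-strand member of 9 exons that fell 2.39-fold, from 0.726, 0.787, 1.34 and 1.33 CPM to 0.464, 0.396, 0.334 and 0.407 CPM (edgeR, adjusted p = 0.0029). Its 12-exon partner had overlapping groups, at 0.887, 0.262, 0.477 and 0.542 CPM and at 0.619, 1.12, 0.960 and 0.702 CPM, and was not called (log2 0.75, SE 0.34, adjusted p = 0.08943). It was called without untreated replicate 1 (log2 1.11, adjusted p = 0.01585). A second pair on chromosome 17, with 5′ ends at 34259241 and 34259777, had a 6-exon plus-strand member that rose 3.52-fold, from 57.8, 81.8, 78.4 and 80.7 CPM to 225, 257, 264 and 228 CPM (edgeR, adjusted p = 1.776e-07). The minus-strand partner of 14 exons was at 185, 187, 196 and 172 CPM untreated and at 187, 210.1, 202 and 174 CPM with IL-4. Its groups overlapped and its 1.12-fold difference was not called (adjusted p = 0.05592), but it was called with the replicate block (adjusted p = 0.0318).

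**Figure D4:**
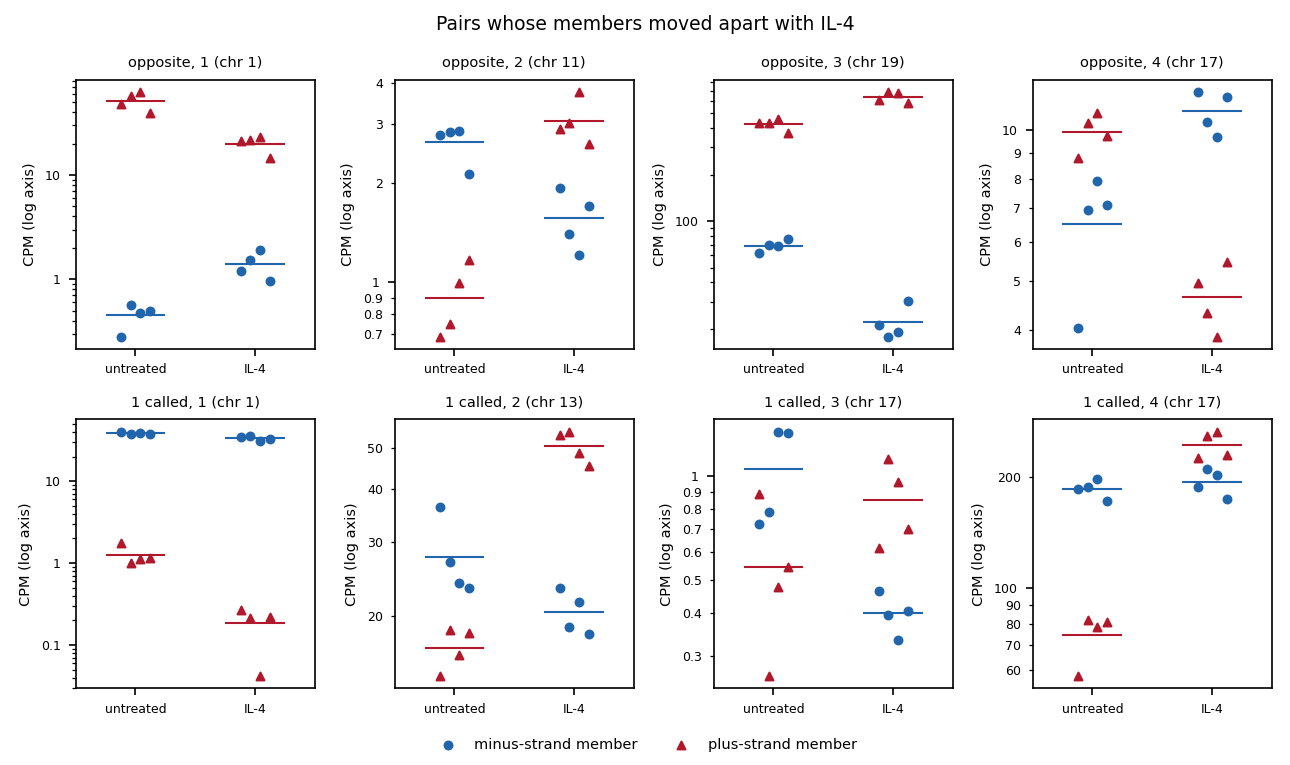
CPM on a log axis in each of the 8 libraries for the 4 pairs whose members moved in opposite directions (top) and 4 with a single member called (bottom), numbered in the order of the text. In the lower right panel the plus-strand member goes from a mean of 74.7 to 243.9 CPM while its partner stays between 172 and 210.1 CPM.

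A locus may also be transcribed from start sites away from the shared promoter. The share of a locus's FPKM from transcripts that start within 500 nt of its 5′ end at the promoter, its promoter share, was therefore computed from mean FPKM over the 8 libraries. It was at least 90% in 860 of the 1133 tested members (75.9%) and under 10% in 53. Of the 50 members that changed 2-fold or more, the share was at least 90% in 29, under 50% in 11 and under 10% in 8. FPKM of transcripts from the shared promoter rose in 251 of 998 tested members (25.2%, against 26.0% over all coding loci with a reference transcript). They fell in 178 (17.8%, against 24.7%). FPKM from other starts rose in 33 of 212 tested members (15.6%, against 22.7%) and fell in 58 (27.4%, against 27.0%), all by limma on log2(FPKM + 0.1), which understates changes of low values. In 501 pairs both members had a promoter share of at least 50%. Of these, 395 were tested on both sides, of which 36 rose together, 32 fell together and 19 moved in opposite directions. Over all tested neighbouring coding pairs, whatever their promoter share, these outcomes made up 10.1%, 10.9% and 10.4%.

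In 7 of the 8 members with a change of 2-fold or more and a promoter share under 10%, both members of the pair were tested. These were chosen after the values were seen, by their count change and their low promoter share. Their count changes and their FPKM from other starts therefore describe the choice. Only the FPKM from the shared promoter are tested, where 4 or more libraries reached 1 FPKM. The most abundant was XLOC_026228, the 44-exon minus-strand member of the pair with the closest start sites, 1 nt apart on chromosome 7 at 147222289 and 147222290. It was at 931, 863, 859.6 and 912 CPM untreated and at 2235, 2588, 2469 and 2215 CPM with IL-4, a 2.87-fold rise without overlap (edgeR, log2 1.52, SE 0.08). Its transcripts from other starts went from 165 ± 9.69 to 470.3 ± 35.2 FPKM (SD, n = 4). Transcripts from the shared promoter were at 7.64 ± 0.642 and 8.48 ± 0.376 FPKM (limma, adjusted p = 0.11). The 6-exon plus-strand partner had 3.95, 3.48, 3.60 and 4.17 CPM untreated and 4.18, 5.72, 4.42 and 5.69 CPM with IL-4, with groups that nearly touched. It rose 1.42-fold (edgeR, adjusted p = 0.01379). The minus-strand locus is joined, and whether its other starts belong to a separate gene was not tested. Of the partner's exonic sequence, 57.3% is shared with another locus.

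The plus-strand member on chromosome 17 that rose 3.52-fold, described above, was also among these 7. Its transcripts from other starts went from 29.1 ± 4.76 to 105 ± 9.07 FPKM (SD, n = 4). Those from the shared promoter were at 1.47 ± 0.339 and 1.56 ± 0.611 FPKM (limma, adjusted p = 0.97). On chromosome 7, at 109358634 and 109358967, a 7-exon plus-strand member rose from 87.8, 102, 99.2 and 91.1 CPM to 229, 254, 253 and 197 CPM, 2.65-fold by edgeR. The lowest IL-4 library was well above all untreated ones. From other starts it went from 23.7 ± 1.27 to 77.2 ± 10.4 FPKM (SD, n = 4). The shared promoter gave 0.649 ± 0.243 and 0.772 ± 0.458 FPKM, too low to test. Its 33-exon partner was not called (1.04-fold lower, edgeR, adjusted p = 0.56).

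Also on chromosome 7, at 29766833 and 29767069, a 33-exon plus-strand member rose 2.78-fold, from 14.1, 14.99, 14.9 and 13.4 CPM to 39.0, 38.8, 36.0 and 34.8 CPM. Its transcripts from the shared promoter were higher with IL-4, at 0.278 ± 0.109 and 0.564 ± 0.083 FPKM (SD, n = 4), but too low to test. The 8-exon partner had FPKM from the shared promoter alone, at 159 ± 3.48 untreated and 159 ± 5.50 with IL-4 (SD, n = 4), and was not called by counts (1.03-fold, edgeR, adjusted p = 0.55). On chromosome 10, at 41529674 and 41530380, the plus-strand member of 10 exons fell 4.32-fold, from 466, 456, 462 and 388 CPM to 100.3, 85.8, 86.5 and 108 CPM. Here transcripts from the shared promoter were high enough to test, and they fell too. They went from 4.38 ± 0.796 to 2.46 ± 0.412 FPKM (SD, n = 4, limma, adjusted p = 0.002265), and those from elsewhere from 104 ± 8.65 to 22.0 ± 3.27 FPKM. The 12-exon partner fell 1.27-fold (edgeR, adjusted p = 0.002504). The remaining members were the 22-exon locus on chromosome 10 described among the joint rises and a low 15-exon minus-strand locus on chromosome 2 (5′ end at 58998684). The latter fell 4.23-fold, from 1.61, 1.72, 2.12 and 1.04 CPM to 0.387, 0.324, 0.0834 and 0.592 CPM. Its transcripts from the shared promoter were at 0.0319 and 0.0034 FPKM, too low to test. The 23-exon plus-strand partner fell 1.72-fold without overlap (edgeR, adjusted p = 2.968e-05). FPKM of that partner from the shared promoter fell from 8.62 ± 1.09 to 4.855 ± 0.434 (SD, n = 4, limma, adjusted p = 0.0001311).

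**Figure D5:**
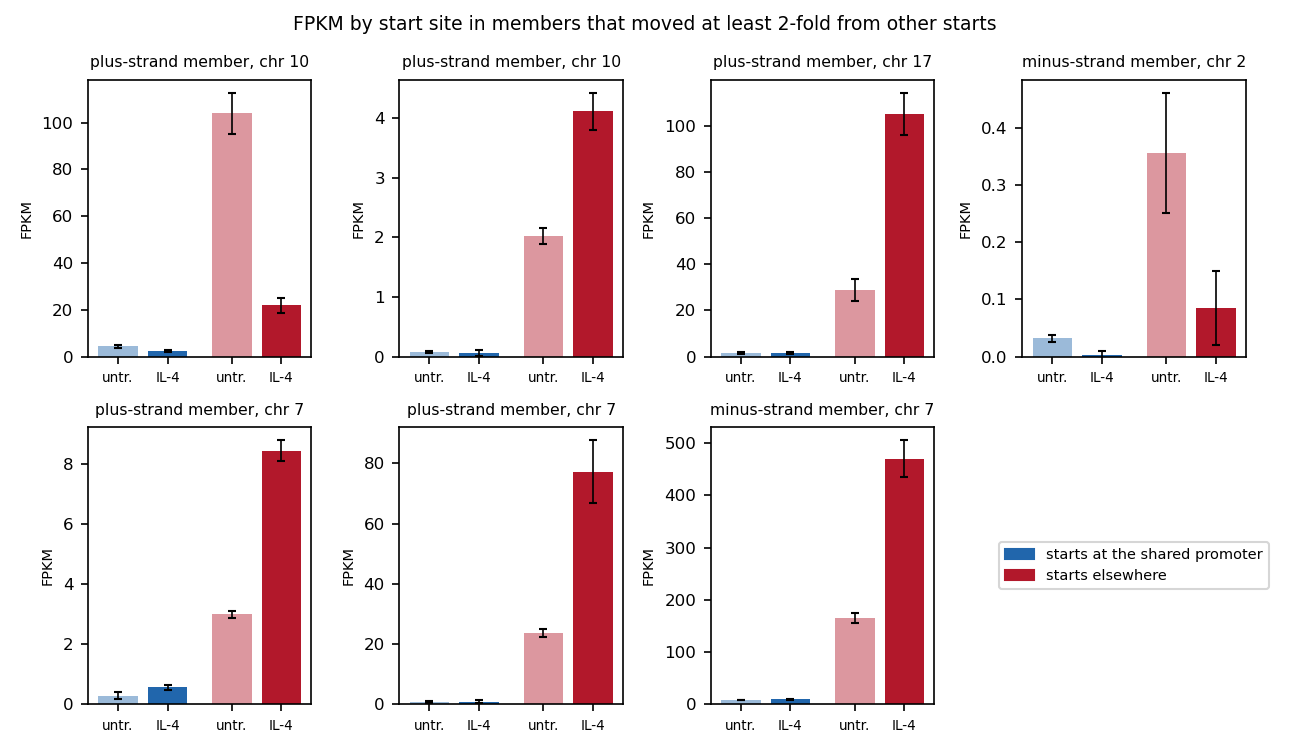
Mean FPKM with SD (n = 4) from transcripts that start at the shared promoter (blue) and elsewhere (red), untreated (pale) and IL-4 (dark), for 7 members that changed 2-fold or more with a promoter share under 10%. The red bars are the higher ones by the choice of these members, and in the last panel the blue bars are at 7.64 and 8.48 FPKM.

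Among the 503 pairs with both members tested, the levels of the members bore no visible relation to each other. Pairs with a member below the count filter are left out of this comparison. Per length, the higher member exceeded the lower by a median factor of 3.58 in untreated cells and 3.83 with IL-4. The members were within 2-fold of each other in 146 and 131 of 503 pairs, and 10-fold or more apart in 130 and 132. The correlation of the log2 FPKM levels was 0.00 (Pearson) across the pairs in untreated cells and 0.01 with IL-4. The plus-strand member was the higher in 242 pairs. The member with the higher level differed between the groups in 26 pairs, 20 of which had a changed count ratio.

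Pairs with both members tested were ranked by the FPKM of the lower member, from all start sites, over all 8 libraries. The most abundant were on chromosomes X, 4, 12 and 13. On chromosome 12, at 88607236 and 88607678, the 9-exon plus-strand member fell from 374, 335, 327 and 351 CPM to 165, 159, 157 and 179.7 CPM, a 1.95-fold fall without overlap (edgeR, adjusted p = 1.7e-06). Its joined 27-exon partner, at 326, 319, 316 and 313 CPM and then 264, 275, 264 and 285 CPM, was not called (1.09-fold lower, adjusted p = 0.11). The groups of that partner did not overlap in CPM. The FPKM of the members were 185 ± 14.2 and 76.2 ± 1.35 from the shared promoter in untreated cells and 91.3 ± 6.67 and 68.1 ± 3.50 with IL-4 (SD, n = 4). By these FPKM both members fell, by log2 -1.02 and -0.16 (limma, adjusted p = 3.538e-06 and 0.02316). On chromosome 4, at 40895327 and 40895569, both members were close in level, at 87.8 and 86.0 FPKM untreated and 92.2 and 103 FPKM with IL-4. The minus-strand member was not called (edgeR, adjusted p = 0.29), the plus-strand member rose 1.24-fold (adjusted p = 0.001047), and their ratio was not called (limma, adjusted p = 0.17).

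The fourth of these, on chromosome 13 at 22134818 and 22135099, fell on both sides. The single-exon minus-strand locus went from 14.1, 12.7, 14.9 and 11.8 CPM to 10.1, 7.74, 10.3 and 9.13 CPM, 1.33-fold lower (edgeR, adjusted p = 0.009057). The 2-exon plus-strand locus went from 57.0, 47.1, 46.3 and 38.2 CPM to 29.1, 25.4, 23.7 and 25.8 CPM, 1.68-fold lower (adjusted p = 0.0002291). Both had groups that did not overlap. The change of their log2 ratio was -0.33 (limma), with an adjusted p of 0.05434 without the replicate block and 0.01748 with it.

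The 6 pairs with single-exon loci on both sides, a set picked out after the values were seen, all lay on chromosome 13 between 21807632 and 24026720. Of the 5 with counts, 3 fell on both sides and 2 had 1 member called, also a fall. None of the 10 members had a called rise. At 21808012 and 21808291 the levels went from 14.7, 14.9, 16.0 and 11.6 CPM to 9.68, 9.32, 9.01 and 7.87 CPM on the minus strand, and on the plus strand from 30.8, 26.9, 28.4 and 24.6 to 15.9, 14.2, 14.3 and 10.8 CPM. Both members were apart between groups and fell 1.48-fold and 1.86-fold (edgeR, adjusted p = 0.0009276 and 5.104e-05). At 21845696 and 21845992 the falls were 1.76-fold and 1.66-fold (adjusted p = 7.97e-05 and 5.453e-05), again without overlap.

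In the remaining single-exon pairs the calls by counts were less even. At 22127421 and 22127756 the plus-strand member fell 2.01-fold (edgeR, adjusted p = 9.862e-05). Its partner, 1.31-fold lower, was not called without the replicate block (adjusted p = 0.10) but was with it (adjusted p = 0.03671). FPKM of this partner from the shared promoter fell (log2 -0.66, limma, adjusted p = 0.0009394). At 23663089 and 23663269 the minus-strand member fell 1.502-fold (adjusted p = 0.0008486). Its plus-strand partner was at 65.1, 64.2, 66.4 and 38.6 CPM untreated and at 41.1, 44.4, 42.6 and 50.0 CPM with IL-4, so untreated replicate 4 alone lay inside the IL-4 range. That partner was not called with all libraries (adjusted p = 0.13) and was called without untreated replicate 4 (log2 -0.44, adjusted p = 0.002211). With all libraries, its FPKM from the shared promoter fell (log2 -0.26, limma, adjusted p = 0.03698). At 23666059 and 23666340 the falls were 1.26-fold (adjusted p = 0.04349) and 1.46-fold (adjusted p = 0.000683). The first of these calls was lost under several settings, with adjusted p = 0.05462 under RLE factors and 0.1237 without IL-4 replicate 2. FPKM of that member from the shared promoter fell (log2 -0.43, limma, adjusted p = 0.01482). The pair at 24026025 and 24026331 had 0 counts on both sides in all libraries, although its minus-strand member, which shares no exonic sequence, had 9.19 FPKM untreated and 9.94 FPKM with IL-4.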

How the data were processed

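Per the labels' protocols, the 4 untreated and 4 IL-4 samples yielded total RNA, which was cleared of DNA and of ribosomal RNA before TruSeq library preparation. The submitters' processing notes name HTSeq, Cufflinks 2.1.1, TopHat2 2.0.9, CASAVA 1.8.2 and build mm9. Their settings for strand and for reads that meet several loci are not stated in the labels. Per merged locus the authors deposited raw read counts, and per transcript FPKM. Value columns not matched to a library numbered 0.

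Pairs were found by the rule in the merged annotation, and members and lists were chosen with earlier results of these data known. Of 55308 reference transcript IDs in the annotation, 0 occurred in the reference tables, so gene lists and cell-type markers could not be used and no sequence is printed.

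The count test was edgeR 4.0.16 under R 4.3.3 (TMM, default expression filter, quasi-likelihood test, two-sided, Benjamini-Hochberg adjustment over 13761 loci, threshold 0.05). The ratio of a pair was tested with limma 3.58.1 on log2((plus + 0.5)/(minus + 0.5)) over 7287 neighbouring coding pairs. The split of FPKM by start site was chosen after seeing the data and tested with limma on log2(FPKM + 0.1), where 4 or more libraries reached 1 FPKM, adjusted over all coding loci with a reference transcript. Standard errors (SE) are of log2 values. Alternatives were DESeq2 1.42.0, other factors, filters, pseudocounts and distances, glmTreat, a replicate block and leaving out libraries. The procedures were tested on simulated data.

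The labels give both groups replicate numbers 1 to 4. Deviations from the group means of same-numbered libraries correlated at 0.3884, 0.1484, 0.2282 and 0.1792, all above the 0.1 set for pairing, and those of differently numbered ones between -0.2646 and 0.2596, untreated 3 with IL-4 2 being the highest of these. By that limit the numbers may pair the libraries, but the limit does not settle it. Besides untreated 3 with IL-4 2, it was passed by untreated 1 with IL-4 4 (0.122) and untreated 2 with IL-4 3 (0.1328). Calls and p-values are from fits without the block unless stated, and values with the block are printed where they change a call.

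Named pairs were up to 4 of each kind: both rose and both fell (ranked by the smaller absolute change), opposite directions and 1 called with the larger change (ranked by the change of ratio), and the highest FPKM of the lower member. Added were the shortest distance, the 2 pairs on each side of 1000 nt, and the 2 members with the highest CPM and a partner at 0 counts. Others are said to be chosen after their values were seen. The depth of a single FPKM value is unknown.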

Additional observations from a re-analysis of the deposited data

Results flagged for a closer look

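In 9 of 144 groups of 4 libraries examined for the named loci, a single library stood apart from the other 3 by Dixon's test at the 95% level, which chance does in about 1 of 20 groups. The ratio of the gap to the range is given for each. In untreated cells, replicate 3 was low at the 3-exon member on chromosome 19 at 34715233 (0.780 CPM, others 1.04 to 1.09, ratio 0.858) and at the 12-exon member on chromosome 10 at 41529674 (14.3 CPM, ratio 0.88). It was high at the 33-exon member on chromosome 7 at 109358634 (124 CPM, others 105 to 108, ratio 0.84). Replicate 4 was low at 3 members. These were the 10-exon member on chromosome 11 at 87217997 (2.13 CPM, others 2.78 to 2.86, ratio 0.894), the single-exon member on chromosome 13 at 23663269 (38.6 CPM, others 64.2 to 66.4, ratio 0.922) and the 10-exon member on chromosome 10 at 41530380 (388 CPM, others 456 to 466, ratio 0.867). Replicate 1 was low at the 6-exon member on chromosome 17 at 34259777 (57.8 CPM, others 78.4 to 81.9, ratio 0.855) and high at the 7-exon member on chromosome 4 at 40895327 (198 CPM, others 158 to 164, ratio 0.856). With IL-4, replicate 1 was high at the single-exon member on chromosome 13 at 23666059 (12.8 CPM, others 9.57 to 9.80, ratio 0.93).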

How the results depend on the processing

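Over the settings tried, the counts of members and pairs stayed within 1.5 times of those reported, with these exceptions. Tested against a 1.5-fold change (glmTreat, and limma's treat for ratios), 31 members rose and 41 fell, and 0 pairs rose together, 6 fell together, 1 moved in opposite directions, 49 had 1 member called and 37 had a changed ratio. In the pairs without shared exonic sequence, a smaller set, these counts were 136, 107, 20, 21, 11, 120 and 110. With the replicate block, 42 pairs moved in opposite directions. With both replicate 4 libraries left out, 28 pairs rose together, and leaving out 1 library at a time gave 28 to 50 (28 without untreated replicate 2). Computed from FPKM, the ratio of the pair on chromosome 12 at 117643713 changed by -0.44, where counts showed no change (0.02, SE 0.18); the cause was not tested. In the pair on chromosome 19 at 10076123 the sign turned (-0.41, with a library listed at 0 FPKM). Under the block, 3 named loci and 1 named ratio gained a call, as given in the report, and it changed no other call of a named locus or ratio. Over all settings, named loci that were called kept the call in 871 of 909 fits and lost it in 38, 30 of them under the 1.5-fold test; those not called gained one in 15 of 223 fits. For the ratios of named pairs, 14 of 365 fits lost the call with the sign kept, 9 of them under the 1.5-fold test, and 5 of 176 gained one. By FPKM, 1 further called ratio changed sign and lost its call (chromosome 19 at 10076123). Likewise 1 ratio that was not called changed sign and gained a call (chromosome 12 at 117643713). Low counts limit precision most for members under 1 CPM.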

Other observations

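In 28 pairs a tested member faced a partner with 0 counts in all libraries. The one with the highest CPM, a measure without correction for length, was the joined 14-exon plus-strand locus on chromosome 4 with its 5′ end at 155366981, at 364, 302, 294 and 312 CPM untreated and at 369.8, 361, 369 and 402 CPM with IL-4. It rose 1.27-fold (edgeR, adjusted p = 0.005702), with untreated replicate 1 inside the IL-4 range. Its single-exon partner at 155366787 had all its exonic sequence shared with another locus, and its deposited FPKM were 2.02 ± 0.391 untreated and 2.22 ± 0.188 with IL-4 (SD, n = 4). On chromosome 8, at 26127394 and 26127683, a 23-exon minus-strand member was at 242 ± 9.95 and 243 ± 18.8 CPM (edgeR, adjusted p = 0.24). The 4-exon plus-strand partner had 0 counts but 52.8 ± 2.40 and 56.7 ± 3.41 FPKM, more than the 37.6 and 39.2 FPKM of the counted member, and 98.0% of its exonic sequence is shared. Low counts beside higher FPKM were also found without shared exons. On chromosome 13, picked after the values were seen, the single-exon members with 5′ ends at 21902236 and 21925444 had means of 0.0859 and 0.0104 CPM untreated and 0 with IL-4. Their FPKM were 57.3 and 57.4 untreated and 37.9 and 36.9 with IL-4, and they share no exonic sequence with another locus.

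Counts and FPKM also differed in the abundant pair on the X chromosome, at 71541593 and 71542436. The 8-exon minus-strand member was at 7.501, 9.26, 9.28 and 8.93 CPM untreated and at 6.46, 5.04, 6.05 and 5.21 CPM with IL-4, a 1.43-fold fall (edgeR, adjusted p = 0.002517). Its FPKM were 107.8 untreated and 90.3 with IL-4, and 60.6% of its exonic sequence is shared. Only 0.94% of those FPKM untreated and 0.9% with IL-4 came from the shared promoter. The joined 21-exon plus-strand partner was at 572 ± 30.0 and 568 ± 28.2 CPM (SD, n = 4, edgeR, adjusted p = 0.27) and at 162 and 169 FPKM. By counts the log2 ratio changed by 0.61 (SE 0.14, limma, adjusted p = 0.00306).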
